A study of Danio rerio with 6 samples.

Results

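The period and cryptochrome genes of the zebrafish include those of the negative limb of the circadian clock, and transcripts of both families were followed here in 6 aged male brains. The array held 12 target sequences for the 9 genes per1a, per1b, per2, per3, cry1a, cry1b, cry2, cry3a and cry-dash, out of 38489 targets in all. Of these, 10 were found through the gene symbol that the array annotation gives, older symbols included, and 2 without a symbol were found through their RefSeq accession. The latter are the single target of per1b and 1 of the 2 targets of per3. The annotation still calls per1a per1, cry2 cry3 and cry3a cry2a.

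All fish were AB strain males, 12 months old, kept at 28 °C under 14 h of light and 10 h of dark. In the lead-exposed group (100 ppb, n = 3) embryos had been in water with lead acetate from under 2 h to 72 h after fertilization, and in the control group (0 ppb, n = 3) the water held no added lead. From then on both groups lived without lead, and each sample is the whole brain of 1 fish. The hour of the day at which brains were taken is not in the labels, nor is the tank each fish came from.

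In vertebrates CLOCK and BMAL proteins bind E-box elements and switch on the period and cryptochrome genes, whose proteins then return to the nucleus and repress CLOCK and BMAL. The loop takes about a day, so the level of these transcripts depends on the hour. Zebrafish carry several copies of both families after genome duplication, and light itself induces some of them, among them per2 and cry1a. Most zebrafish tissues, the brain included, hold their own light-responsive clocks.

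No period or cryptochrome target passed the test for a difference between lead-exposed and control brains. Of the 12 targets 8 had a higher and 4 a lower mean in lead-exposed brains, with a median difference of 0.135 on the log2 scale, where the median over all targets was 0. In limma 0 of the 12 passed an adjusted p of 0.05, as did 0 of all 38489 targets (0% called), and adjusted p-values of the 12 lay between 0.793 and 0.992. At unadjusted p under 0.05 there were also 0 of 12, where 7.19% of all targets were called, 4.19% as higher and 3.00% as lower in lead-exposed brains. A fitted difference as large as 1.5-fold was found for 3 of the 12, per1a and both targets of per3, and for 4.74% of all targets. However, these 3 had values under the random-sequence limit, given below with per3, in 3 or more brains. The values of the groups overlapped for each of the 12, while 13.1% of all targets had groups that did not overlap. For per1a and per3 the brains of the lead-exposed group differed more from each other than the group means did.

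Among the 9 period and cryptochrome genes, per3 varied most. It encodes a PAS domain protein that pairs with the other period proteins and with cryptochromes. The RefSeq-derived target had log2 intensities of 9.31, 9.85 and 12.36 in controls 1 to 3 and of 11.53, 9.65 and 13.27 in lead-exposed brains 1 to 3. The Vega-derived target had 10.31, 10.61 and 12.48 in controls and 11.89, 9.93 and 13.56 in lead-exposed brains. Both targets put lead-exposed 3 highest, then control 3, then lead-exposed 1, and in both the remaining 3 brains lay under the level that 95% of random-sequence probes stay below. That limit, used here as the mark of background, was between 10.41 and 10.91 on the 6 arrays. It comes from single probes, while a target value summarizes 3 probes. The medians of the random-sequence probes were lower, between 7.97 and 8.12.

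From the lowest to the highest brain per3 spanned 3.96 log2 units in the RefSeq-derived target and 3.63 units in the other, with low ends under the random-sequence limit, so no fold is given. The SD between brains of a group, pooled over the groups, was 1.72 and 1.53, and 43 and 67 of the 38489 targets had a larger one. Group means of the RefSeq-derived target were 10.51 ± 1.63 in controls and 11.49 ± 1.81 in lead-exposed brains (SD, n = 3), a difference of 0.98 (SE 1.08, adjusted p of 0.868 in limma). For the Vega-derived target they were 11.13 ± 1.17 and 11.79 ± 1.82, a difference of 0.66 (SE 0.96, adjusted p of 0.902 in limma). With 95% confidence intervals from −1.58 to 3.54 and from −1.62 to 2.94, a rise and a fall of 2-fold both lay within each interval. The difference rested on single brains, at 0.09 and −0.22 without lead-exposed 3 at 1.91 and 1.33 without control 3 and at 1.90 and 1.59 without lead-exposed 2. On the 2 arrays whose image names lack a prefix, those of replicate 1, it was 2.22 and 1.58, and on the other 4 it was 0.36 and 0.20.

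The array annotation places these targets on chromosome 11, the first at 39479258 to 39535663 and the second at 29704949 to 29760721. Both spans cover the same gene, so the coordinates of the Vega-derived targets are not on the same assembly as the others. The array's own sequence names refer to Zv7, and the build of the Vega-derived coordinates is not given in the sources used here.

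**Figure D1:**
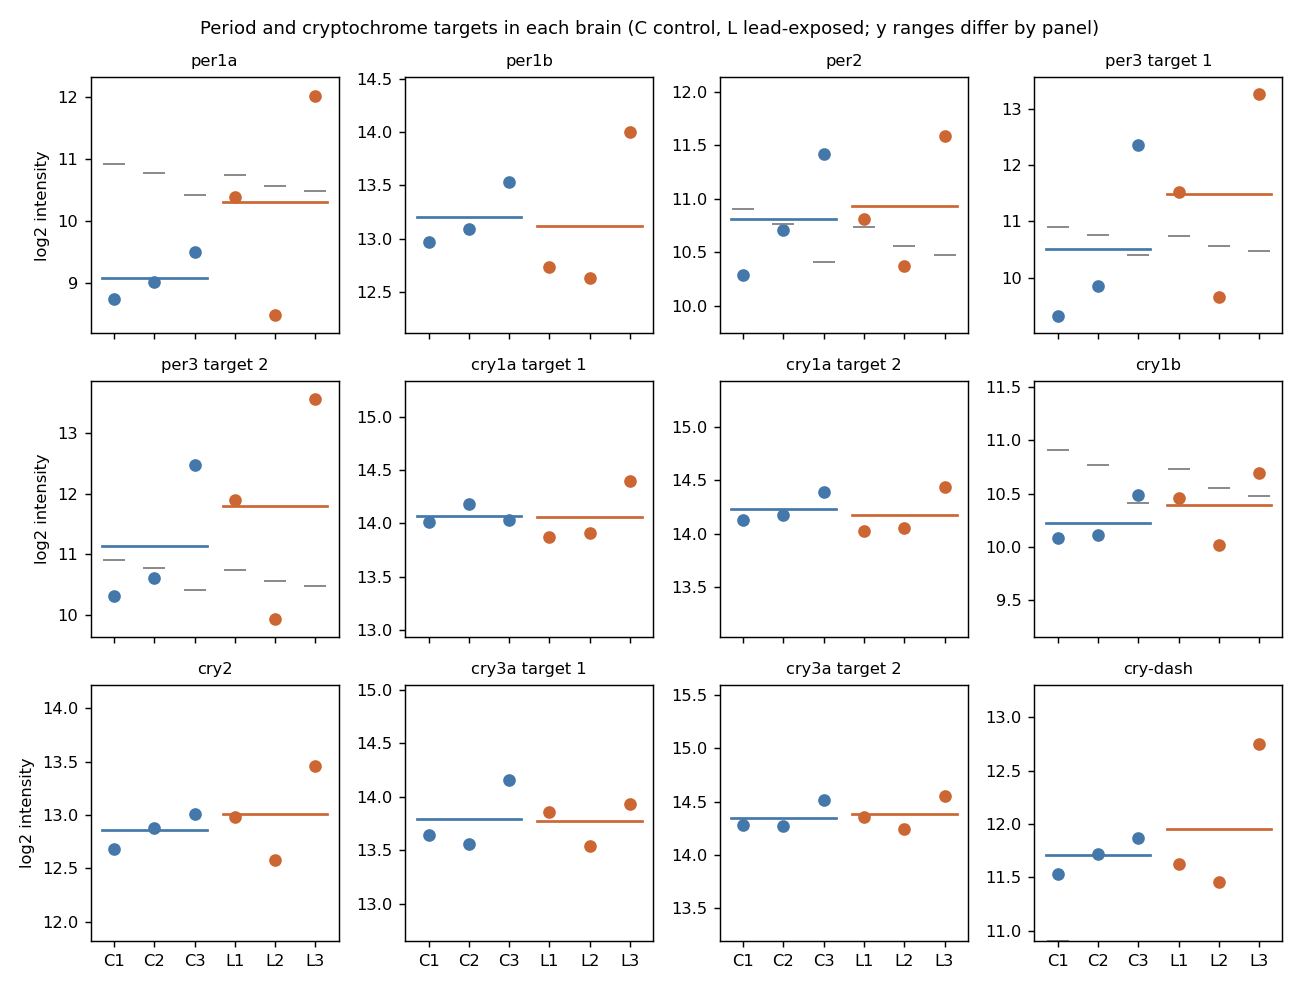
Log2 intensity (y axis) of each of the 12 targets in each brain (x axis; C1 to C3 control, L1 to L3 lead-exposed), with group means as coloured lines and the 95th percentile of random-sequence probes on each array as grey marks where it falls in the panel. Target 1 is the RefSeq-derived one for per3 and the one with the lower identifier for cry1a and cry3a. Brain L3 was highest in 11 of the 12 panels.

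In the other period genes lead-exposed 3 was also highest and control 3 was the highest control, while the place of lead-exposed 1 differed. Their ranges were smaller, though that of per1a, 3.55 log2 units, was close to that of per3. Values of per1a were 8.73, 9.01 and 9.49 in controls and 10.38, 8.48 and 12.02 in lead-exposed brains. These deposited summary values were above the random-sequence limit in lead-exposed 3 only, while 1 of the 3 probes, number 2133, was above it on all 6 arrays. That probe read 11.99, 11.86 and 12.27 in controls and 13.46, 11.21 and 14.76 in lead-exposed brains, with lead-exposed 3 and 1 above all controls and lead-exposed 2 below them. Between group means it differed by 1.10, without a test. The difference fitted to the summary values, which lie mostly under the limit and give no fold, was 1.22 (SE 0.81, adjusted p of 0.793 in limma), and it fell to 0.35 without lead-exposed 3 and rose to 2.13 without lead-exposed 2. The target lies on chromosome 10 at 14676001 to 14691779 in the Vega-derived annotation. Its pooled SD of 1.29 was exceeded by 153 targets.

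The second copy of this gene, per1b, was well above the limit on all 6 arrays. Its values were 12.97, 13.09 and 13.53 in controls and 12.74, 12.63 and 14.00 in lead-exposed brains. Again control 3 and lead-exposed 3 were highest, and the other 2 lead-exposed brains were the lowest of all 6. Means were 13.20 ± 0.29 and 13.12 ± 0.76 (SD, n = 3), a difference of −0.07 (SE 0.38, adjusted p of 0.976 in limma). Without lead-exposed 3 the difference was −0.51, and without lead-exposed 2 it was 0.17. The gene is on chromosome 7 at 51066438 to 51090265.

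In zebrafish per2 is induced by light through D-box and E-box elements and is used as a readout of light input. It measured 10.29, 10.71 and 11.42 in controls and 10.81, 10.37 and 11.59 in lead-exposed brains. As for per3, lead-exposed 3 was highest, then control 3, then lead-exposed 1, and the remaining 3 brains were under the random-sequence limit. The difference was 0.12 (SE 0.39, adjusted p of 0.963 in limma), and it changed sign without lead-exposed 3, to −0.21. The range of the 6 values was 1.30 log2 units, with no fold given since its low end was under the limit.

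Cryptochromes are flavoproteins related to DNA photolyases, and in zebrafish the products of cry1a, cry1b and cry3a repress CLOCK and BMAL in cell assays. Among the 12 named targets, levels of cryptochromes lay closer together across the 6 brains than those of period genes, narrowly so for cry-dash. The target of cry1a on chromosome 4 at 8905736 to 8917060 gave 14.01, 14.18 and 14.03 in controls and 13.87, 13.91 and 14.40 in lead-exposed brains. A longer one, ending at 8919200, gave 14.13, 14.17 and 14.39 against 14.02, 14.05 and 14.44. Lead-exposed 3 was highest in both. Differences were −0.01 (SE 0.18, adjusted p of 0.991 in limma) and −0.06 (SE 0.16, adjusted p of 0.953), with 95% confidence intervals from −0.43 to 0.40 and from −0.45 to 0.33. A change of 1.5-fold in either direction lies outside both intervals.

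The most stable of the 12 was a target of cry3a on chromosome 8, at 13759395 to 13779896, with 14.28, 14.27 and 14.52 in controls and 14.36, 14.24 and 14.55 in lead-exposed brains. Its range was 0.31 log2 units, or 1.24-fold, and the difference between groups was 0.03 (SE 0.14, adjusted p of 0.975 in limma, 95% confidence interval −0.31 to 0.37). The other cry3a target, at 13754769 to 13782336, gave 13.64, 13.56 and 14.16 against 13.86, 13.54 and 13.93. This was the only one of the 12 with control 3 above lead-exposed 3. The group difference was −0.01 (SE 0.20).

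The product of cry2, the gene formerly called cry3, lacked this repression in such assays. Its values, on chromosome 25 at 11874898 to 11876980, were 12.68, 12.88 and 13.01 in controls and 12.98, 12.58 and 13.46 in lead-exposed brains. The difference was 0.15 (SE 0.24, adjusted p of 0.909 in limma) and turned to −0.07 without lead-exposed 3. The summary values of the repressor gene cry1b lay between 10.02 and 10.69, above the limit on 2 arrays, those of control 3 and lead-exposed 3. Its 3 probes differed in brightness: number 1552 was above the limit on all 6 arrays, at 11.98, 11.97 and 12.06 in controls and 12.17, 11.98 and 12.33 in lead-exposed brains, and number 2813 on none. The difference of the summary values was 0.17 (SE 0.21, adjusted p of 0.885 in limma).

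The ninth gene, cry-dash, belongs to a branch of the family whose members repair single-stranded DNA. On chromosome 24 at 9647725 to 9662177, it measured 11.53, 11.72 and 11.87 in controls and 11.63, 11.46 and 12.75 in lead-exposed brains. Lead-exposed 3 stood above the other 5 brains, which lay between 11.46 and 11.87. The group difference of 0.24 (SE 0.33, adjusted p of 0.897 in limma) turned to −0.16 without that brain.

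**Figure D2:**
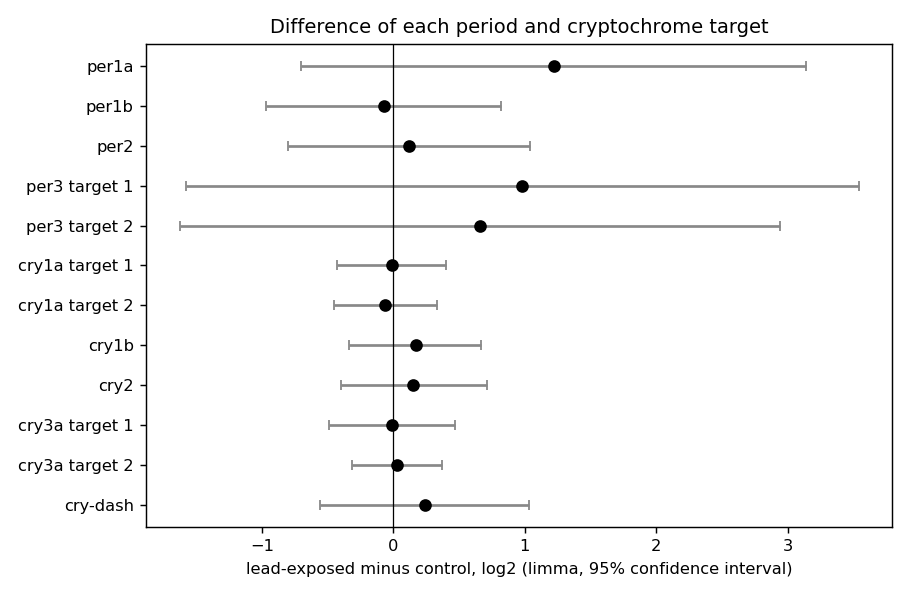
Difference between lead-exposed and control brains in log2 units (x axis) for each target (y axis), with 95% confidence intervals from limma on 3 brains per group. Every interval includes 0, and those of per3 and per1a are the widest.

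Over the 12 targets the highest brain was mostly the same, while lower places differed more. For per1a lead-exposed 1 was second, and for both cry1a targets it was lowest. Lead-exposed 3 was the highest brain for 11 of 12 targets, where it was highest for 18.7% of all targets on the array. That top place did not extend to all of the 10 further targets annotated only as homologues, given at the end. Lead-exposed 3 was highest for 5 of those. Lead-exposed 2 was the lowest for 8 of 12, against 15.9% of all targets, though for per1a, cry1b and 1 target of per3 its value was under the limit. Within the groups, control 3 was the highest control for 11 of 12 (38.2% of all targets) and lead-exposed 3 the highest exposed brain for 12 of 12 (31.3%). The median deviation of the 12 targets from their own mean was −0.24, −0.13 and 0.19 in controls 1 to 3 and 0.02, −0.36 and 0.63 in lead-exposed brains 1 to 3. The 12 targets stand for 9 genes and share the same 6 arrays, so these counts describe the brains and are no independent evidence.

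**Figure D3:**
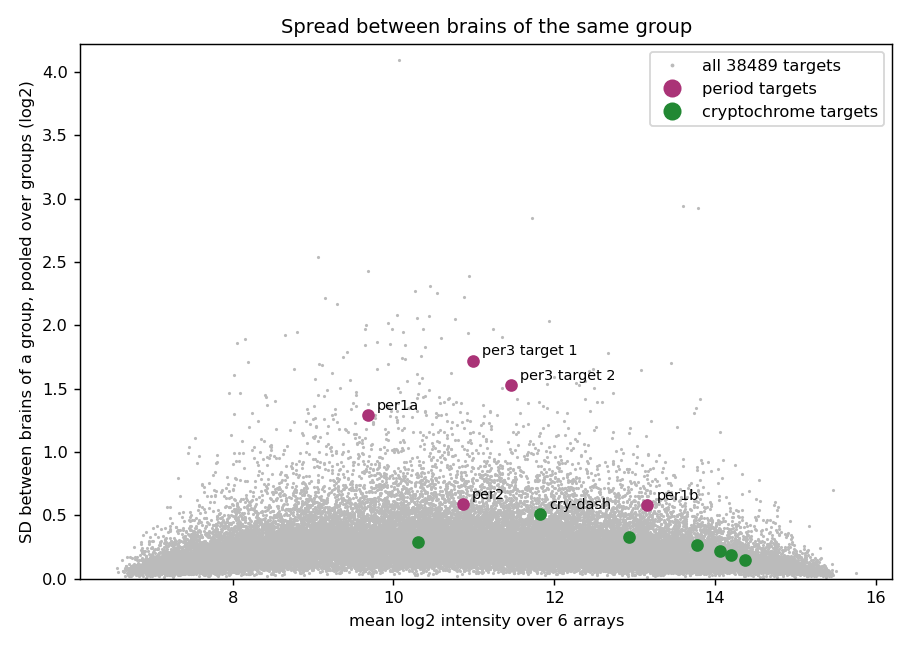
Pooled SD between brains of a group (y axis, log2) against mean log2 intensity over 6 arrays (x axis), for all targets in grey, period targets in purple and cryptochrome targets in green. The targets of per3, at 1.72 and 1.53, and of per1a, at 1.29, lie in the sparse upper part, and the cryptochromes other than cry-dash lie within the main cloud.

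Among the 12 named targets the spread differed between the families, though the range of cry-dash, 1.28, was close to the 1.30 of per2. The contrast did not extend to all targets annotated only as homologues, given at the end. There the PER2 homologues ranged over 0.57 and 0.72 log2 units and a CRY2 homologue over 2.21. All 5 period targets had a pooled SD of at least 0.58, and the 7 cryptochrome targets lay between 0.15 and 0.51. Those of per1b and per2, at 0.58 and 0.59, were exceeded by 2345 and 2151 of all targets and that of cry-dash, at 0.51, by 3385. For the remaining cryptochromes between 9642 and 28673 targets had a larger SD. All period targets but that of per1b were under the random-sequence limit on some arrays, as was cry1b, so spread and level are mixed in this contrast. Among targets above the limit on all 6 arrays, the SD of per1b was at percentile 96.6 and that of cry-dash at 94.5. The part of signal level in the spread was not tested. In whole brain, a lower value can come from fewer cells with the transcript or from less transcript per cell, and these cannot be told apart.

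Arrays of control 3 and lead-exposed 3 also had the lowest random-sequence limits, 10.41 and 10.48, against 10.56 to 10.91 on the other 4. They had the largest shares of targets above their limit, 58.3% and 57.5%, against 50.6% to 56.3%. The part of this in the order of the brains was not tested. Markers of photoreceptors stood out on another array, that of control 2: the cone opsin gene opn1sw1 was 14.76 there and between 8.99 and 10.22 elsewhere, and gnat1 was 12.46 there and between 8.84 and 9.76 elsewhere. The summed intensity of the 6 measured pineal and photoreceptor markers ranged from 3283 to 51830 in controls and from 4034 to 5605 in lead-exposed brains. None of the 12 period and cryptochrome targets was highest in control 2, where 16.6% of all targets were highest. So few targets cannot set a count of 0 apart from that share. The measured neuronal markers snap25a, snap25b, syt1a and syn2a were above the limit on all 6 arrays, with a summed intensity of 119719 to 128691 in controls and 118814 to 124118 in lead-exposed brains.

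Markers of astroglia and of blood were low in lead-exposed 3, the brain with the highest period and cryptochrome values. All 4 measured markers of astroglia and radial glia, fabp7a, s100b, glula and gfap, were lowest there, at 14.23, 14.62, 14.77 and 13.18, and all 4 were above the limit on all 6 arrays. Their ranges were 0.69, 0.48, 0.27 and 0.64 log2 units. Of all targets 20.1% were lowest in lead-exposed 3. The summed intensity of the 4 astroglial markers was 81477 in that brain, the lowest of the lead-exposed group, whose highest was 109813, and lay between 99485 and 109469 in controls. Both measured blood markers were also lowest in lead-exposed 3, hbaa1 at 14.41 and alas2 at 11.05, with a summed intensity of 23854 there, up to 43142 in the group and 27474 to 50135 in controls. In control 3 both blood markers were at their highest, so blood markers ran opposite ways in the brains where per3 was high. The same held for the astroglial markers s100b and glula, highest in control 3 at 15.10 and 15.04. There fabp7a and gfap, at 14.72 and 13.36, were neither highest nor lowest. Summed oligodendrocyte markers, 3 measured, ranged from 71995 to 79616 in controls and from 76553 to 81854 in lead-exposed brains. The neuronal markers snap25a and syt1a were also lowest in lead-exposed 3, at 15.16 and 14.77, over narrow ranges of 0.11 and 0.13. The neuronal markers syn2a and snap25b were not lowest there, nor was any measured muscle marker. The muscle marker tnnt3b, above the limit on all 6 arrays, was 11.70 in that brain. The part of these cell types in the order of the brains was not tested.

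Each target was read by 3 probes, and these show how far the brains' order holds within a transcript. In per1a all 3 probes put lead-exposed 3 highest and lead-exposed 1 second. The deposited target value lay below that of probe 2133 on every array. In per1b all 3 probes also had their highest value in lead-exposed 3 and the next in control 3.

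For per3 the probes parted over lead-exposed 1. Probe 4482 of the RefSeq-derived target read 11.53 there and probe 4454 of the Vega-derived one read 11.91, both far above controls 1 and 2. Probes 1269 and 1245 read 10.11 and 9.89 in the same brain, below control 2 at 10.66 and 10.95. In control 3 and lead-exposed 3 all 4 of these probes were high, between 12.36 and 14.09. A further probe, number 3, was under the limit on all 6 arrays, with values between 8.90 and 9.87. The deposited value of lead-exposed 1 was at or close to that of its brightest probe in both targets (11.53 and 11.89), and with the mean of the probes the group differences became 0.40 and 0.38 in place of 0.98 and 0.66. In 5 of the 6 probes per3 was higher in control 3 and lead-exposed 3 than in the other brains of their groups, and the place of lead-exposed 1 depended on the probe.

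**Figure D4:**
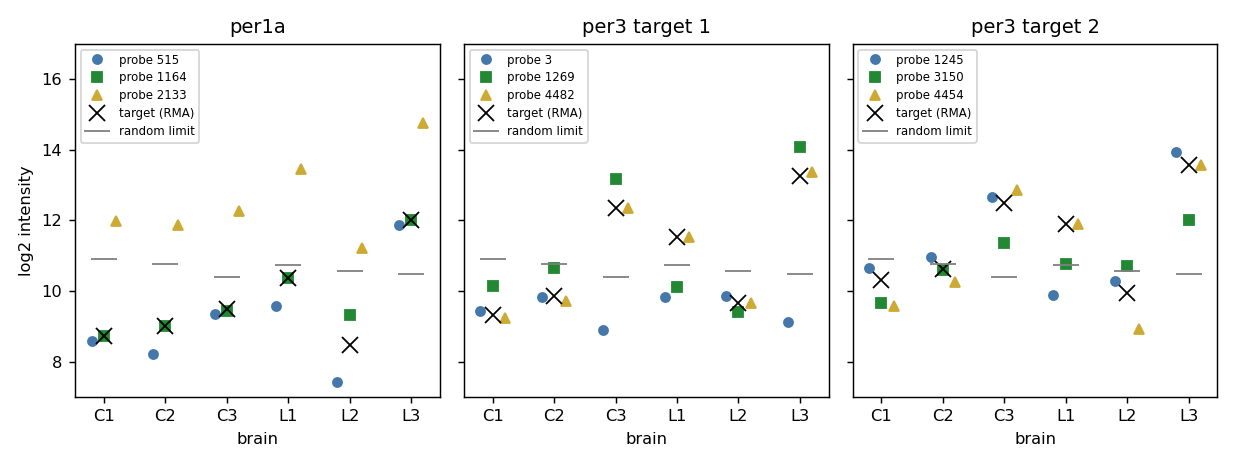
Log2 intensity (y axis) of the 3 single probes of per1a and of both per3 targets in each brain (x axis; C control, L lead-exposed), with the deposited target value as a cross and the random-sequence limit as a grey mark. Target 1 of per3 is the RefSeq-derived one. Probes 1269 and 4482 of per3 agree in C3 and L3 and part in L1.

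The partners of the period and cryptochrome proteins were followed in lists of 51 further clock genes, of which 23 had a named target. Of the 23 there were 0 past an adjusted p of 0.05 in limma. At unadjusted p under 0.05 there were also 0, where 7.19% of all targets were called. So few genes cannot set a count of 0 apart from that share. By mean, 8 were higher and 15 lower in lead-exposed brains, with a median difference of −0.05.

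In the positive limb, 3 of 6 genes were measured. The brightest target of bmal2, a partner of CLOCK, had 12.00, 11.73 and 10.52 in controls and 11.72, 12.29 and 10.44 in lead-exposed brains. Control 3 and lead-exposed 3 were lowest here, the reverse of the period genes, with lead-exposed 3 just under the random-sequence limit. The other 2 bmal2 targets were also lowest in these brains within each group, but most of their values were under the limit. Group means of bmal2 differed by 0.07 (SE 0.55). Those of clocka and clockb, which encode CLOCK proteins, differed by −0.01 (SE 0.22) and −0.05 (SE 0.14).

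Nuclear receptors of the ROR and REV-ERB families drive and repress bmal genes in mammals. Of 10 listed, 6 were measured, 1 with a higher and 5 with a lower mean in lead-exposed brains. Values of rorb were 13.40, 13.37 and 12.57 in controls and 12.11, 13.21 and 12.30 in lead-exposed brains, a difference of −0.57 (SE 0.35, adjusted p of 0.773 in limma). The difference of rorca was −0.41 (SE 0.30), with lead-exposed 3 at 11.58 and the other 5 brains between 12.58 and 12.82. The REV-ERB gene nr1d1 was under the limit on all 6 arrays, with 10.46 in lead-exposed 3 and 8.32 to 8.64 elsewhere. The widest range in this list was that of rorcb, which was chosen after its values were seen. It had 13.30, 12.99 and 10.77 in controls and 12.67, 13.70 and 10.45 in lead-exposed brains, so it was low where per3 was high, in control 3 and lead-exposed 3. Its value in lead-exposed 3 was just under the limit of that array.

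Among factors that act on D-box and E-box elements, 7 of 14 were measured. The activator gene dbpa had 10.97, 11.22 and 10.71 in controls and 9.09, 9.89 and 11.93 in lead-exposed brains, a difference of −0.66 (SE 0.66). Its values in lead-exposed 1 and 2 were under the random-sequence limit. The repressor gene ciarta, above the limit on 3 arrays, had 10.31, 10.77 and 11.21 against 10.65, 10.30 and 13.32, a difference of 0.66 (SE 0.76). Both were highest in lead-exposed 3. Values of bhlhe40, an E-box repressor, stayed between 13.67 and 14.01.

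Among kinases, ubiquitin ligases and other partners of PER and CRY, 6 of 17 genes were measured. The casein kinase gene csnk1e, whose product phosphorylates period proteins, lay between 14.42 and 14.72. The ubiquitin ligase gene fbxl3a, whose mammalian counterpart marks cryptochromes for breakdown, lay between 14.14 and 14.83. Differences were −0.11 (SE 0.13) and −0.13 (SE 0.20). The brightest target of the RNA-binding protein gene nono ranged more widely, from 11.12 in control 3 to 13.26 in lead-exposed 2, with a difference of 0.55 (SE 0.65). Its other target, with a difference of 0.26, was under the random-sequence limit on every array. Of the other cryptochrome and photolyase genes listed, the CPD photolyase gene cpdp alone had a named target. It measured 13.45, 13.57 and 13.59 in controls and 13.09, 13.25 and 13.94 in lead-exposed brains, with lead-exposed 3 again highest and a difference of −0.11 (SE 0.23).

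**Figure D5:**
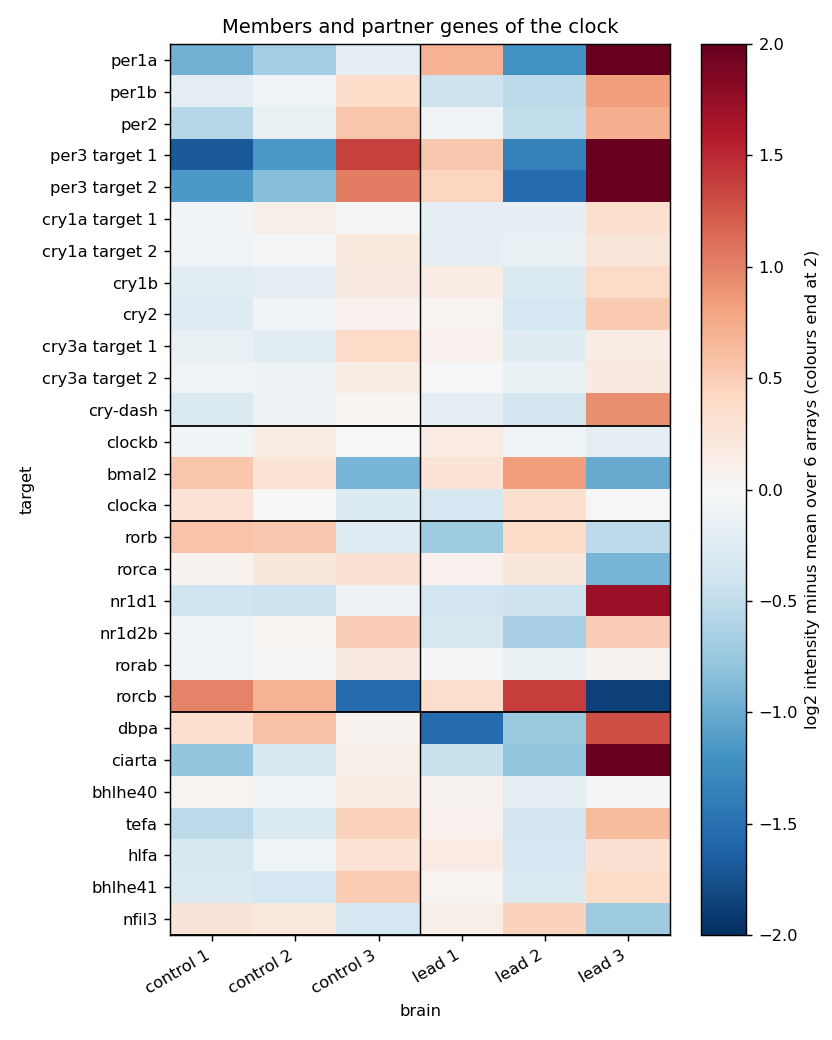
Log2 intensity minus the mean over 6 arrays (colour, red high and blue low) for the 12 targets, then genes of the positive limb, nuclear receptors and D-box and E-box factors (y axis), in each brain (x axis). Control 3 and lead 3 are red for per3 and blue for bmal2 and rorcb.

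The transcripts most like the period genes were sought among 6922 targets that had a symbol and were above the limit on all 6 arrays, by the root-mean-square difference of values centred on their own mean over the 6 arrays. Nearest to per2 was phf1, with a difference of 0.07 log2 units, followed by adcyap1r1a (0.10), a receptor of the neuropeptide PACAP, and tefa (0.11), a D-box activator of the clock. The values of tefa were 12.69, 12.92 and 13.67 in controls and 13.29, 12.85 and 13.85 in lead-exposed brains. A second, dimmer tefa target differed from it in lead-exposed 1, at 9.53, close to its lowest values of 9.36 and 9.58. All of these values were under the random-sequence limit. Nearest to per1b were pnrc1 (0.09), dcc (0.11), a netrin receptor, and bmpr2a (0.12), a bone morphogenetic protein receptor. For cry1a these were zpr1 (0.04), rhobtb2a (0.05) and slc17a6b (0.05), a vesicular glutamate transporter. The measure is small between any targets that vary little, and this cry1a target ranged over 0.42 log2 units. Its size therefore cannot be compared between members. For the Vega-derived target of per3 the nearest of these candidates were efr3bb, napbb and plch1, at 0.59, 0.62 and 0.64. Candidates had to be above the limit on all 6 arrays, which per3 and per2 themselves were not, and other period and cryptochrome targets were left out. Targets with swings like those of per3 and per2 could therefore be missing among the candidates.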

How the data were processed

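Per the labels, each sample was the RNA of 1 brain, labelled with Cy3 as cDNA for a 1-colour NimbleGen array. The authors deposited an intensity per target from RMA, a background correction, quantile normalization and probe summary named in the submitters' processing notes without settings, and an intensity per single probe. Their deposited list of altered probes, with a log2 ratio and a p-value each, has 180 entries, all among the 38489 targets. It holds none of the 12 targets, and so short a list cannot set that count apart from its share of all targets. Log2 of the RMA intensity was taken with no filter. Targets were named by RefSeq accession, then by the file's symbol, current or older. Over all 38489 targets, limma 3.58.1 (lmFit and eBayes, two-sided, R 4.3.3) compared the groups, with Benjamini-Hochberg adjustment. The fit was tested on simulated data with noise drawn independently for each target, so shifts shared by many targets of an array were not covered. With 3 arrays a group precision is low, and an exact permutation test reaches at best p = 0.1. Since each sample is 1 fish, the p-values rest on the spread between fish, and shared tanks are not known. Named were all 12 targets, up to 3 genes with the smallest p per partner list, and the 3 targets nearest to each of per1b, per2, per3 and cry1a. Genes, lists and tests were chosen with earlier results of these data known. Image crops numbered 1 to 3 were controls and those numbered 4 to 6 lead-exposed, so crop order cannot be told apart from exposure. The prefix in the image names, missing for replicate 1 in both groups, was tried as a block, beside the replicate number, other normalization, array weights, a filter on dim targets, an intensity trend, probe means and leaving out each array. Probe sequences and female brains were not used here.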

Additional observations from a re-analysis of the deposited data

How the results depend on the processing

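Under the alternatives with a test, 171 differences of period and cryptochrome targets were computed, and 0 passed an adjusted p of 0.05 in limma (the lowest was 0.263). Without adjustment 3 were under 0.05, namely per1a with array weights (1.69) and without lead-exposed 2 (2.13), and per1b without lead-exposed 3 (−0.51). In these settings 5934, 5045 and 1882 of all 38489 targets were under 0.05, so single calls among the 12 do not stand out. Signs changed mostly for small differences. Without lead-exposed 3, however, the Vega-derived target of per3 went from 0.66 to −0.22 and cry-dash from 0.24 to −0.16. The first cry3a target became 0.0016 with a repeated quantile normalization, 0.14 with array weights and 0.22 on the pair of arrays without the image name prefix. As the mean of both its targets cry3a was 0.0088. On the arrays with the prefix alone per1b was 0.0047, cry1a 0.0536 and per2 −0.0804, and with array weights per1b was 0.0594. Leaving out 1 array gave −0.51 to 0.17 for per1b, −0.21 to 0.43 for per2, −0.22 to 1.59 and 0.09 to 1.91 for the targets of per3, 0.35 to 2.13 for per1a, −0.18 to 0.0836 and −0.19 to 0.0203 for cry1a, 0.02 to 0.35 for cry1b, −0.0729 to 0.37 for cry2, −0.12 to 0.17 and −0.0524 to 0.11 for cry3a, and −0.16 to 0.48 for cry-dash. The lower end was that without lead-exposed 3 for all but the first cry3a target, which was lowest without control 2. The cause was not tested. With array weights the targets of per3 were 1.92 and 1.43.

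Replicate numbers recur in both groups, but the labels do not say that they pair fish, so they were not taken as pairs. Deviations from the group means, over all targets, had correlations of −0.148, 0.142 and 0.263 between samples of the same number, for 1, 2 and 3. Between samples of unlike numbers the correlations ran from −0.376 to 0.357. With the replicate block 0 targets passed and 3009 were at unadjusted p under 0.05, against 2768 without it, and per3 and per1a kept their means with an SE of 0.45, 0.44 and 0.58. The count of 2768 became 5934 with array weights, 741 with the dimmer 50% of targets left out (fewer targets tested), 1203 on the arrays with the prefix and 1813 to 5045 when 1 array was left out, the last without lead-exposed 2. No setting gave a target past the adjusted threshold. The summary values of per1a, per2, per3 and cry1b were under the random-sequence limit on some arrays, which limits what their differences show, although single probes of per1a and cry1b were above it on all 6.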

Other observations

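A further 10 targets had no zebrafish symbol but were annotated as homologues of PER2, CRY1 or CRY2, and they were not counted above. Their differences lay between −0.06 and 0.35, with 4 higher and 6 lower in lead-exposed brains and 0 past an adjusted p of 0.05 in limma. At unadjusted p under 0.05 there were also 0 of the 10, where 7.19% of all targets were called. Some of the 10 lie on chromosomes of named targets, such as chromosome 2 for per2 and chromosome 8 for cry3a. Since the assemblies differ, they may read the same genes, which was not tested. A pair of PER2 homologues on chromosome 2, at 43106381 to 43106982 and at 43106381 to 43106864 in the array annotation, had 11.80, 12.19 and 12.15 and 12.16, 12.38 and 12.59 in controls. In lead-exposed brains they had 11.74, 12.01 and 12.31 and 12.25, 12.40 and 12.89. Lead-exposed 3 was highest in both, and their values ranged over 0.57 and 0.72 log2 units. The widest range among the 10, 2.21, was that of a CRY2 homologue on chromosome 10, at 36177907 to 36193210, with 10.68, 11.56 and 11.53 in controls and 11.41, 10.59 and 12.80 in lead-exposed brains. Lead-exposed 3 was highest for 5 of the 10, lead-exposed 2 for 3 and control 3 for 2. The 2 CRY1 homologues on chromosome 22 and on an unplaced sequence that were highest in lead-exposed 2 were at their lowest in lead-exposed 3, at 12.80 and 13.85, the reverse of the named cryptochrome genes.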
